A study of Rattus norvegicus with 9 samples.

Results

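Cholesterol and fatty acid metabolism genes were followed in rat ventral midbrain, the floor of the embryonic midbrain, as tissue and as primary culture. The set lists 49 genes in 6 roles: sterol synthesis, sterol regulation, fatty acid synthesis, acyl-CoA synthetases, fatty acid oxidation, and uptake with the PPAR receptors. A gene was measured where an array probe set carried its symbol alone, and the probe set with the highest mean over the 9 arrays stood for it. This gave 47 of the 49 genes, out of 10411 genes measured in all. Hmgcs1 and Abca1 were not analysed here.

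The study set primary cultures against the tissue they came from, on 9 Affymetrix rat arrays. MesPC denotes 6 arrays of cells dissociated from ventral midbrains of embryonic day 11 and kept 9 days in vitro. MesE11 denotes 3 arrays of undissociated ventral midbrain of embryonic day 11. Embryos from 4 dams were mixed into 3 batches of embryos, and the midbrains of each were pooled or cultured in duplicate, so each array reads many embryos and no single animal. No strain, sex, transgene or drug is given for either group. The labels speak of 3 arrays with independent MesPC samples while 6 are listed, so p-values may treat arrays that share a culture or an embryo batch as separate.

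Cholesterol is built from acetyl-CoA by way of mevalonate, squalene and lanosterol, and the brain makes nearly all of its own because plasma lipoproteins hardly cross the blood-brain barrier. The genes of the route are transcribed under SREBP factors, which INSIG proteins hold in the endoplasmic reticulum while sterol is plentiful. Fatty acids are made in the cytosol from the same acetyl-CoA, then elongated and desaturated, whereas their oxidation takes place in mitochondria after carnitine-linked import and in brain is ascribed mainly to astrocytes.

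All values are log2 intensities, on which a difference of 1 is a 2-fold change, and differences are MesPC minus MesE11 with the moderated standard error of limma. A gene is said to have risen or fallen in MesPC where the limma p, adjusted by the Benjamini-Hochberg method over 15866 probe sets, was under 0.05. Levels are compared within a gene only, since a probe set's brightness cannot be set against that of another. Bacterial control probe sets, which should find no rat RNA, read 4.80 to 6.68, and values in that range carry little signal. In these bulk samples fewer cells of a type and less RNA per cell cannot be told apart.

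The culture arrays formed 2 sets. Correlations over all probe sets were at least 0.997 within MesPC 1 to 3 and within MesPC 4 to 6, 0.982 to 0.987 between those sets, and 0.943 to 0.974 between culture and tissue. The labels name nothing that parts the sets. Since the division was seen in earlier results of these data, the sets are compared with each other by description alone. A p-value of 1 set against tissue takes its 3 arrays as separate samples and does not test what parts the sets. Some genes given such a p-value were picked for their gap between the sets. Of 9 astrocyte markers 6 rose in MesPC and 0 fell, of 9 fibroblast markers 8 rose and 1 fell, and all 8 proliferation markers rose. Of 8 neuron markers 4 fell and 0 rose, all 6 dopaminergic and all 7 erythroid markers fell, and so did 5 of 8 microglia and 4 of 5 endothelial markers. Over all genes 21.9% rose and 22.7% fell. The mean level of the 9 fibroblast markers was 10.65 to 10.84 in MesPC and 7.94 to 8.16 in MesE11. The 4 adipocyte markers measured averaged 6.07 to 6.29 in MesPC and 6.19 to 6.33 in MesE11, inside the bacterial control range. As a check of the tissue label, Th, the dopamine-synthesis enzyme, read 8.19 to 8.81 in MesPC and 11.44 to 11.66 in MesE11, while Foxa2, a floor plate factor, read 9.37 to 10.17 in MesPC and 9.53 to 9.67 in MesE11. Nr4a2, a dopaminergic factor, read 7.24 to 8.27 in MesPC and 9.19 to 9.34 in MesE11, and Otx2, a fore- and midbrain factor, read 10.86 to 11.38 in MesPC and 9.89 to 10.48 in MesE11.

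Across the roles, oxidation genes were higher in culture, several sterol synthesis genes were lower, and fatty acid synthesis genes went both ways. Of the 47 members 18 rose and 11 fell in MesPC, where over all genes 21.9% rose and 22.7% fell. By role, 9 of 11 oxidation genes rose and 0 fell, 6 of 14 sterol synthesis genes fell and 0 rose, and 4 of 9 fatty acid synthesis genes rose and 1 fell. Of 5 sterol regulation genes 4 rose and 1 fell, and 3 of 5 acyl-CoA synthetases fell. The median difference was 0.68 for oxidation and -0.13 for sterol synthesis, against -0.06 for all genes. Fewer falls were called with a tissue array left out: 6 without MesE11 1, 5 without MesE11 2 (3 of them in sterol synthesis) and 8 without MesE11 3. Calls fell over all probe sets too, where 3565 were lower with all arrays. In those runs 2518, 2739 and 2241 were lower. Under another round of quantile normalization 17 members rose and 16 fell.

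Set against tissue separately, MesPC 1 to 3 had 18 members higher and 19 lower, where 25.7% of all genes were higher and 27.0% lower. MesPC 4 to 6 had 21 higher and 8 lower, where 22.9% of all genes were higher and 27.2% lower. Between the sets, 14 members had all MesPC 1 to 3 values above all MesPC 4 to 6 values and 22 had all of them below, where over all genes 26.0% lay above and 22.4% below. Of those 22 members 13 belong to sterol synthesis and 6 to fatty acid synthesis, and of the 14 members 10 belong to oxidation.

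**Figure D1:**
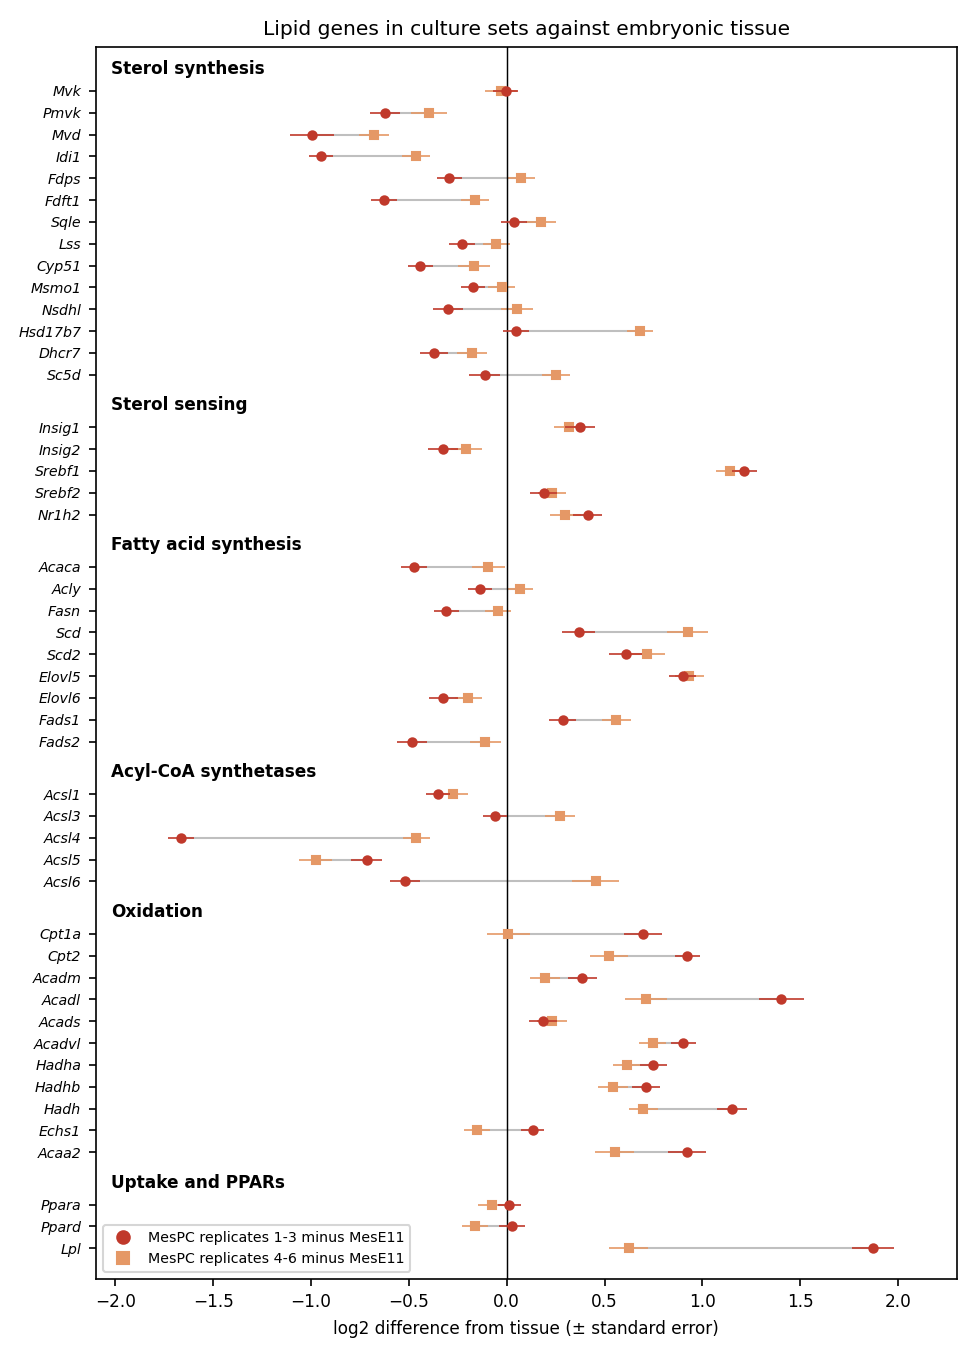
Differences of the 47 members from the MesE11 mean, as log2 differences with their standard errors, by role; circles are MesPC 1 to 3 and squares MesPC 4 to 6. The oxidation genes other than Echs1 lie at or right of 0 in both sets, and the circles of 13 of 14 sterol synthesis genes lie left of the squares.

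The largest falls in sterol synthesis were those of Mvd, Idi1 and Pmvk, which act in succession, while Mvk before them and Fdps after them did not pass the test. Mvd encodes mevalonate diphosphate decarboxylase, which makes the isoprene unit. It read 8.70, 8.22 and 8.60 in MesPC 1 to 3 and 8.90, 8.86 and 8.72 in MesPC 4 to 6, against 9.59, 9.47 and 9.46 in MesE11. Every culture array lay below every tissue array, a difference of -0.84 ± 0.13 or 1.79-fold (adjusted p = 0.000773). Idi1 encodes the isomerase of that unit and read 10.46, 10.57 and 10.53 in MesPC 1 to 3 and 11.06, 10.91 and 11.05 in MesPC 4 to 6, against 11.54, 11.45 and 11.44 in MesE11. The groups again did not overlap, with a difference of -0.71 ± 0.14 or 1.63-fold (adjusted p = 0.00366), and a dimmer Idi1 probe set fell by 0.59 ± 0.10. Pmvk, the phosphomevalonate kinase one step before Mvd, read 8.49 to 8.86 in MesPC and 9.06 to 9.31 in MesE11 and fell by 0.51 ± 0.10 (adjusted p = 0.00252).

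The remaining falls were smaller and less secure. Fdft1, squalene synthase, the first step committed to sterols, read 10.61, 10.57 and 10.63 in MesPC 1 to 3 and 11.03, 11.10 and 11.08 in MesPC 4 to 6, against 11.33, 11.15 and 11.23 in MesE11. Its difference was -0.39 ± 0.14 (adjusted p = 0.043), most of it in MesPC 1 to 3. Cyp51, the lanosterol demethylase, fell by 0.31 ± 0.10 (adjusted p = 0.0325), although a dimmer probe set of the gene differed by 0.05. Dhcr7, a last step before cholesterol, fell by 0.27 ± 0.08 (adjusted p = 0.0215). With the culture sets as a random block the calls of Fdft1, Cyp51 and Dhcr7 were lost (adjusted p = 0.0932, 0.14 and 0.132), and that of Dhcr7 also without MesE11 2 (adjusted p = 0.092). Those of Fdft1 and Cyp51 were lost without any 1 MesE11 array or any 1 of MesPC 1 to 3 (adjusted p = 0.0506 to 0.138).

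The other 8 sterol synthesis genes did not pass the test over all 9 arrays, and their differences ran from -0.14 for lanosterol synthase (Lss) to 0.37 for Hsd17b7. Mvk, mevalonate kinase, the first kinase of the route, read 9.62 to 9.91 in MesPC and 9.79 to 9.83 in MesE11, a difference of -0.02 ± 0.07 (adjusted p = 0.845). Sqle, squalene epoxidase, read 11.40 to 11.65 in MesPC and 11.32 to 11.50 in MesE11. Msmo1 and Nsdhl, which strip methyl groups from lanosterol products, differed by -0.10 ± 0.06 and -0.12 ± 0.12. The dimmer probe set of Lss fell, by 0.33 ± 0.08 (adjusted p = 0.00703). Of the other Mvk probe sets the dimmest fell, by 0.25 ± 0.08 (adjusted p = 0.0363), and the next differed by -0.04 ± 0.09 (adjusted p = 0.721).

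On the brightest probe sets the sterol synthesis genes differed between the culture sets almost throughout. In 13 of 14 genes the MesPC 1 to 3 values all lay below the MesPC 4 to 6 values, and in 0 all above, where 22.4% of all genes lay below. The gene whose sets overlapped was Mvk. The dimmer Lss probe set had a mean 0.05 higher in MesPC 1 to 3, and the other Mvk probe sets had means 0.20 and 0.15 higher. Those of Idi1, Fdft1, Cyp51, Hsd17b7 and Sc5d were lower there, at -0.33 to -0.14. The median of the role, each gene set against its tissue mean, was -0.24, -0.38 and -0.28 in MesPC 1 to 3 and -0.04, -0.04 and -0.11 in MesPC 4 to 6, against -0.03 to 0.03 in the MesE11 arrays. Set against tissue separately, MesPC 1 to 3 had 10 of 14 genes lower and 0 higher, where 27.0% of all genes were lower and 25.7% higher. MesPC 4 to 6 had 3 lower and 2 higher, no more than the shares of all genes, 27.2% lower and 22.9% higher.

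The gap between the sets was widest for Hsd17b7, the ketoreductase that acts with Nsdhl. It read 8.70, 8.55 and 8.52 in MesPC 1 to 3 and 9.26, 9.16 and 9.24 in MesPC 4 to 6, against 8.52, 8.56 and 8.55 in MesE11. MesPC 4 to 6 thus stood 1.55-fold above MesPC 1 to 3, which lay near the tissue, though a dimmer probe set of the gene differed by -0.14 between the sets. Against tissue alone MesPC 4 to 6 were 0.68 higher (adjusted p = 1.13e-05). Sc5d, which acts beside Dhcr7, likewise stood 0.25 above tissue in MesPC 4 to 6 (adjusted p = 0.0156) and differed by -0.11 in MesPC 1 to 3. Fdps, which makes farnesyl diphosphate, read 11.83, 11.75 and 11.76 in MesPC 1 to 3 and 12.18, 12.17 and 12.08 in MesPC 4 to 6, against 12.00, 12.07 and 12.14 in MesE11. For Fdps MesPC 1 to 3 fell by 0.29 (adjusted p = 0.00341) while MesPC 4 to 6 differed by 0.07.

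**Figure D2:**
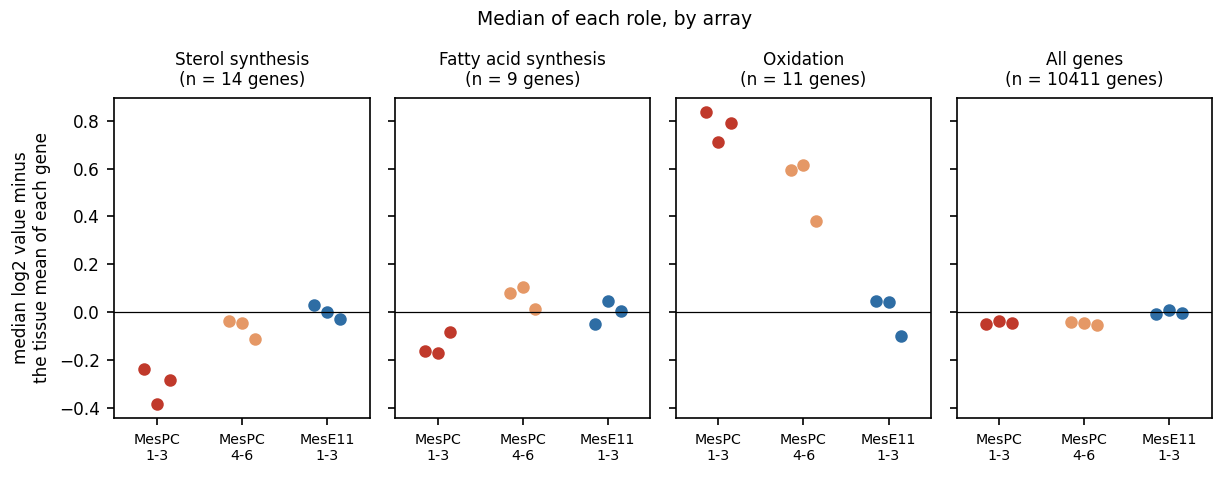
Median over the genes of a role of the log2 value minus the MesE11 mean of each gene, 1 point per array, for 3 roles and for all genes. MesPC 1 to 3 lie below MesPC 4 to 6 in both synthesis roles and above them in oxidation, and all genes lie between -0.05 and 0.01 in every array.

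Markers of neurons, proliferation and oligodendrocytes parted the culture sets as well. All 8 neuron markers were lower in MesPC 1 to 3 than in MesPC 4 to 6 without overlap, and their median, each marker set against its tissue mean, was -1.32, -1.54 and -1.29 in MesPC 1 to 3 and -0.34, -0.31 and -0.34 in MesPC 4 to 6, against -0.01 to 0.08 in MesE11. All 8 proliferation markers were higher in MesPC 1 to 3, at 10.63 to 10.75, than in MesPC 4 to 6, at 9.91 to 10.08, against 9.03 to 9.21 in MesE11. Of 8 oligodendrocyte markers 7 were higher in MesPC 1 to 3 than in MesPC 4 to 6 without overlap and 0 lower, and their mean level was 8.08 to 8.14 in MesPC 1 to 3 and 7.50 to 7.60 in MesPC 4 to 6, against 7.74 to 7.76 in MesE11. Their median against tissue was -0.02, -0.07 and 0.02 in MesPC 1 to 3 and -0.39, -0.25 and -0.31 in MesPC 4 to 6. Against tissue MesPC 1 to 3 had 2 of the 8 higher, Olig1 and Cldn11, and 1 lower. Mog and Ugt8 read within the bacterial control range, as did Mag in MesPC 4 to 6, at 6.53 to 6.62. Mbp was dim as well, at 6.61 to 6.98 in MesPC. Olig1, of the oligodendrocyte lineage, held the widest gap of the 8, at 2.45 or 5.45-fold. Means were also higher in MesPC 1 to 3 for all 7 erythroid and all 4 adipocyte markers, 3 and 1 of them without overlap. Of the 9 astrocyte markers 4 were higher in MesPC 1 to 3 and 0 lower, and of the 9 fibroblast markers 3 were higher and 1 lower. Over all genes 26.0% were higher and 22.4% lower in MesPC 1 to 3 without overlap. The part of these markers in the lipid genes was not tested.

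**Figure D3:**
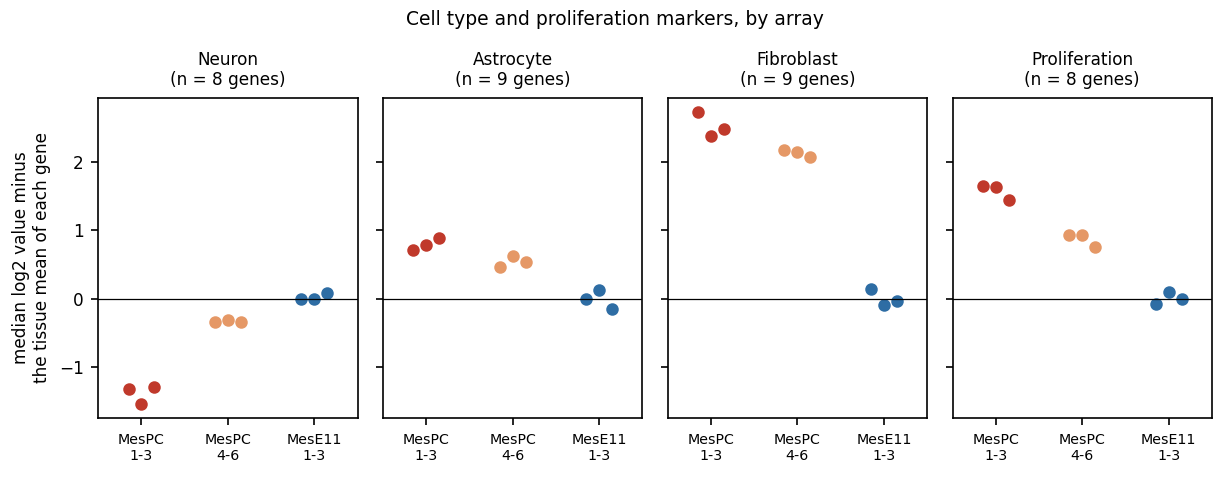
Median over the markers of a cell type, or of proliferation, of the log2 value minus the MesE11 mean of each gene, 1 point per array. Neuron markers lie between -1.54 and -1.29 in MesPC 1 to 3 and between -0.34 and -0.31 in MesPC 4 to 6, and fibroblast markers lie above 2 in all 6 culture arrays.

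The members' promoters were read for shared letters. RefSeq promoters of the GRCr8 build were at hand for 37 of the 47 members, and the 250 bases before the start were searched on both strands. The CCAAT box, CCAAT, to which the factor NF-Y binds and which lies beside sterol elements in several such genes in human and mouse, stood in 9 of 11 sterol synthesis promoters (81.8%). It stood in 4 of 5 sterol regulation promoters, in 4 of 6 of fatty acid synthesis, in 2 of 5 of acyl-CoA synthetases and in 1 of 9 of oxidation, against 36.6% of 8610 measured genes. The GC box, GGGCGG, stood in 9 of 11 sterol synthesis and 6 of 9 oxidation promoters, against 57.3% of all. The sterol element TCACNCCAC stood in 0 of 37 member promoters and in 1.1% of all, which says only that these letters are not in those windows. No motif holds another, and a match is a description and not a binding site.

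The boxes did not follow the gap between the culture sets gene by gene: Cyp51 and Dhcr7, which were lower in MesPC 1 to 3, held 0, and Mvk, whose sets overlapped, held 5.

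The 150 bases before the start, read 5′ to 3′ on the gene's strand, are shown for 4 sterol synthesis genes that were lower in MesPC 1 to 3 than in MesPC 4 to 6, and for 2 oxidation genes that were higher there, as examples with and without the box that were picked after its counts were known. Capitals mark the CCAAT box, written CCAAT or, on the other strand, ATTGG. Mvd lies at chr19:67414975-67415124 on the minus strand, Idi1 at chr17:66547525-66547674 on the minus strand, Fdps at chr2:176804817-176804966 on the minus strand and Nsdhl at chrX:155817210-155817359 on the plus strand. The oxidation genes Acadvl, at chr10:55236706-55236855, and Cpt2, at chr5:127910819-127910968, both lie on the minus strand.
Mvd: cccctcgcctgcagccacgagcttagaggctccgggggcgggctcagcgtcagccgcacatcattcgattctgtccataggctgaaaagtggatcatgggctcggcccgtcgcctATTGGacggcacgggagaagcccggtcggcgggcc
Idi1: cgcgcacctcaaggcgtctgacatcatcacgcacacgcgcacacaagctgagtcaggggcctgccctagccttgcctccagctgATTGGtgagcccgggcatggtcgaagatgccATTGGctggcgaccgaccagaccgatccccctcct
Fdps: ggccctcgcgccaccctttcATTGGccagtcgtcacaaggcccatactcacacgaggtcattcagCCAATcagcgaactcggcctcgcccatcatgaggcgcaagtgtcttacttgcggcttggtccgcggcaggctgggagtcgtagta
Nsdhl: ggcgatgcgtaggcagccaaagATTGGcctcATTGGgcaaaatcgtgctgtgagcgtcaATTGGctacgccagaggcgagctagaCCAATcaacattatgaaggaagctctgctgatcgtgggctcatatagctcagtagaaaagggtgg
Acadvl: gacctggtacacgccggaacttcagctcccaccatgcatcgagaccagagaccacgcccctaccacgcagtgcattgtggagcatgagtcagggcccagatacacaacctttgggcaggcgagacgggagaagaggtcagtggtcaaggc
Cpt2: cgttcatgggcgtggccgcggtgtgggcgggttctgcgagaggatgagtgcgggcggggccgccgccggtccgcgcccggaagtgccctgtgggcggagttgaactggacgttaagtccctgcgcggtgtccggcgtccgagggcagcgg
Mvd holds 1 box, 31 to 35 bases before the start, Idi1 and Fdps hold 2 each and Nsdhl holds 4, while the Acadvl and Cpt2 windows hold 0.

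Of 5 regulators of sterol supply 4 rose and 1 fell in culture, and on the brightest probe sets their means differed by at most 0.12 between the sets. Srebf1 encodes SREBP-1, the factor tied mainly to fatty acid genes, and rose most. It read 10.84, 10.71 and 10.78 in MesPC 1 to 3 and 10.61, 10.75 and 10.74 in MesPC 4 to 6, against 9.54, 9.63 and 9.52 in MesE11. The groups stood far apart, at 1.18 ± 0.06 or 2.26-fold (adjusted p = 5.2e-07). A dimmer probe set rose by 1.01 ± 0.11, with a mean 0.25 higher in MesPC 1 to 3 than in MesPC 4 to 6. Srebf2, whose product SREBP-2 drives sterol synthesis, read 11.14 to 11.36 in MesPC and 10.97 to 11.09 in MesE11. It rose by 0.21 ± 0.06 (adjusted p = 0.0179), but the mean of its probe sets differed by 0.03 (adjusted p = 0.679). That mean takes in a dimmer probe set that averaged 6.14 in MesPC and 6.30 in MesE11, within the bacterial control range.

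The INSIG genes went opposite ways. Insig1, itself a target of SREBP, read 10.90 to 11.09 over the 6 MesPC arrays, against 10.55, 10.77 and 10.59 in MesE11. It rose by 0.35 ± 0.07 (adjusted p = 0.00261). Insig2, its paralogue, read 8.39 to 8.63 in MesPC and 8.65 to 8.85 in MesE11 and fell by 0.27 ± 0.07 (adjusted p = 0.0166). Nr1h2, the oxysterol receptor LXR-beta, read 9.33 to 9.55 in MesPC and 8.95 to 9.19 in MesE11 and rose by 0.36 ± 0.07 (adjusted p = 0.00278), though the mean of its probe sets differed by 0.11 (adjusted p = 0.113). Its dimmer probe set averaged 6.27 in MesPC and 6.41 in MesE11, within the bacterial control range. With the sets as a random block the calls of Insig1, Insig2 and Srebf2 were lost (adjusted p = 0.057, 0.151 and 0.187), that of Insig2 also without MesE11 1 or MesE11 2 (adjusted p = 0.0666 and 0.0676), and that of Srebf2 without MesE11 2 (adjusted p = 0.0724). Nr1h2 was the only 1 of the 5 whose sets did not overlap, with MesPC 1 to 3 higher by 0.12.

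In fatty acid synthesis 4 of 9 genes rose, the elongase Elovl5 and the desaturases Scd, Scd2 and Fads1, while the elongase Elovl6 fell and Acly, Acaca, Fasn and Fads2 did not pass the test. Elovl5, an elongase of polyunsaturated fatty acids, read 12.11, 12.00 and 12.10 in MesPC 1 to 3 and 12.11, 12.15 and 12.05 in MesPC 4 to 6, against 11.16, 11.27 and 11.08 in MesE11. All culture arrays were close to each other and well above tissue, at 0.92 ± 0.06 or 1.89-fold (adjusted p = 2.05e-06), and a dimmer probe set rose by 0.66 ± 0.10. Scd2, the stearoyl-CoA desaturase most abundant in rodent brain, read 13.17, 13.23 and 13.10 in MesPC 1 to 3 and 13.17, 13.25 and 13.40 in MesPC 4 to 6, against 12.38, 12.62 and 12.67 in MesE11. It rose by 0.66 ± 0.08 (adjusted p = 0.000197), and of its dimmer probe sets one rose by 1.08 ± 0.12 and the other differed by 0.09.

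The related desaturase Scd parted the culture sets without overlap, which the brightest Scd2 probe set did not. A dimmer Scd2 probe set had a mean 0.33 higher in MesPC 1 to 3, opposite to Scd, and the dimmest differed by 0.005. Scd read 8.44, 8.39 and 8.43 in MesPC 1 to 3 and 8.93, 9.17 and 8.83 in MesPC 4 to 6, against 8.18, 7.86 and 8.11 in MesE11. It rose by 0.65 ± 0.18 or 1.57-fold (adjusted p = 0.0155), with 0.37 in MesPC 1 to 3 and 0.93 in MesPC 4 to 6, and the call was lost without MesE11 2 (adjusted p = 0.0684). Fads1, a desaturase of polyunsaturated fatty acids, read 10.63, 10.52 and 10.61 in MesPC 1 to 3 and 10.84, 10.82 and 10.93 in MesPC 4 to 6, against 10.23, 10.28 and 10.40 in MesE11, and rose by 0.42 ± 0.09 (adjusted p = 0.0058). Fads2, the desaturase that precedes it, did not pass the test, with 9.15 to 9.73 in MesPC and 9.65 to 9.86 in MesE11 and a difference of -0.30 ± 0.12 (adjusted p = 0.0772).

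Acly, which supplies cytosolic acetyl-CoA, read 12.12 to 12.40 in MesPC and 12.25 to 12.34 in MesE11, a difference of -0.03 ± 0.07 (adjusted p = 0.722). Acaca, acetyl-CoA carboxylase, the committed step, read 10.82, 10.70 and 10.88 in MesPC 1 to 3 and 11.29, 11.24 and 11.01 in MesPC 4 to 6, against 11.23, 11.30 and 11.28 in MesE11. Its difference was -0.28 ± 0.13 (adjusted p = 0.0915), and a dimmer probe set fell by 0.37 ± 0.11 (adjusted p = 0.0234) but ran the other way between the sets, at 0.30. Fasn, fatty acid synthase, differed by -0.18 ± 0.09 (adjusted p = 0.133). Elovl6, which elongates saturated fatty acids, fell by 0.26 ± 0.07 (adjusted p = 0.0166), a call lost with the random block (adjusted p = 0.146) and without MesE11 1 or MesE11 2. On the brightest probe sets all 9 means were lower in MesPC 1 to 3 than in MesPC 4 to 6, by 0.03 to 0.56. Of the 9 genes 6 did not overlap between the sets, where 22.4% of all genes lay below. Like that of Acaca, a dimmer probe set of Scd2 and that of Elovl5 ran the other way, at 0.33 and 0.15. The dimmer probe set of Fasn ran the same way, at -0.37.

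The acyl-CoA synthetases, which activate fatty acids for every later use, included the members that were lowest in MesPC 1 to 3 relative to MesPC 4 to 6. Acsl4, which favours arachidonic acid, read 8.94, 8.94 and 8.84 in MesPC 1 to 3 and 10.08, 10.09 and 10.15 in MesPC 4 to 6, against 10.50, 10.56 and 10.65 in MesE11. The 3 groups of values did not touch, and MesPC 1 to 3 stood 2.3-fold below MesPC 4 to 6. Over all 9 arrays Acsl4 fell by 1.06 ± 0.33 (adjusted p = 0.0284), with differences of -1.66 in MesPC 1 to 3 and -0.46 in MesPC 4 to 6, and the call was lost without any 1 MesE11 array (adjusted p = 0.0711 to 0.0942).

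Acsl6, the synthetase enriched in brain, read 7.21, 7.14 and 7.24 in MesPC 1 to 3 and 8.05, 8.47 and 8.00 in MesPC 4 to 6, against 7.73, 7.84 and 7.57 in MesE11. The culture sets lay on opposite sides of the tissue, 1.97-fold apart, so that the difference over all arrays was -0.03 ± 0.29 (adjusted p = 0.936). MesPC 1 to 3 fell by 0.52 (adjusted p = 0.000328) and MesPC 4 to 6 rose by 0.46 (adjusted p = 0.00956). Acsl5, a mitochondrial and endoplasmic form, read 8.60 in each of MesPC 1 to 3 and 8.31, 8.41 and 8.29 in MesPC 4 to 6, against 9.18, 9.28 and 9.48 in MesE11. It fell by 0.85 ± 0.10 or 1.8-fold (adjusted p = 0.000117), and its mean was 0.26 higher in MesPC 1 to 3 than in MesPC 4 to 6, whereas the other 4 synthetases had lower means there.

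Acsl1, the main form of heart, liver and fat, fell by 0.31 ± 0.06 (adjusted p = 0.0035), a call lost with the random block (adjusted p = 0.0658). Acsl3, a form of the endoplasmic reticulum and lipid droplets, read 9.90, 10.00 and 9.89 in MesPC 1 to 3 and 10.32, 10.12 and 10.35 in MesPC 4 to 6, against 9.94, 10.00 and 10.03 in MesE11. Its difference over all arrays was 0.11 ± 0.11 (adjusted p = 0.442), and MesPC 4 to 6 alone were 0.27 higher (adjusted p = 0.0144).

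Of the 11 fatty acid oxidation genes 9 rose in MesPC, where 21.9% of all genes rose. Cpt1a and Echs1 did not pass the test on their brightest probe sets. Acadl, the long-chain acyl-CoA dehydrogenase, rose most and read 10.55, 10.80 and 10.81 in MesPC 1 to 3 and 10.06, 10.13 and 9.90 in MesPC 4 to 6, against 9.32, 9.55 and 9.09 in MesE11. The difference was 1.06 ± 0.22 or 2.08-fold (adjusted p = 0.00362), with 1.40 in MesPC 1 to 3 and 0.71 in MesPC 4 to 6. Hadh, the dehydrogenase for hydroxyacyl-CoA of shorter chains, read 10.62, 10.78 and 10.64 in MesPC 1 to 3 and 10.24, 10.24 and 10.20 in MesPC 4 to 6, against 9.59, 9.61 and 9.40 in MesE11. It rose by 0.92 ± 0.14 or 1.9-fold (adjusted p = 0.000615), but a dimmer probe set of the gene fell by 0.46 ± 0.09 (adjusted p = 0.00221), and averaged over its probe sets Hadh differed by 0.23 (adjusted p = 0.0748).

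Acadvl, the dehydrogenase for very long chains, read 9.93, 9.85 and 9.88 in MesPC 1 to 3 and 9.77, 9.69 and 9.74 in MesPC 4 to 6, against 9.02, 9.03 and 8.90 in MesE11. The values were tight in every group, and it rose by 0.82 ± 0.07 or 1.77-fold (adjusted p = 1.08e-05). Acaa2, the thiolase that closes the cycle, read 10.76 to 11.03 in MesPC 1 to 3 and 10.70, 10.59 and 10.39 in MesPC 4 to 6, against 10.09, 10.11 and 9.83 in MesE11, and rose by 0.74 ± 0.14 (adjusted p = 0.00229). The subunits of the trifunctional protein rose alike, Hadha by 0.68 ± 0.07 (adjusted p = 4.11e-05) and Hadhb by 0.63 ± 0.08 (adjusted p = 0.000179).

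The carnitine palmitoyltransferases bring long chains into the mitochondrion. Cpt2, on the inner membrane, read 9.46, 9.43 and 9.51 in MesPC 1 to 3 and 9.14, 9.21 and 8.85 in MesPC 4 to 6, against 8.44, 8.58 and 8.60 in MesE11, and rose by 0.72 ± 0.14 (adjusted p = 0.00223). Cpt1a, the regulated form on the outer membrane, read 9.61, 9.66 and 9.73 in MesPC 1 to 3 and 8.80, 9.00 and 9.13 in MesPC 4 to 6, against 8.74, 9.05 and 9.12 in MesE11. MesPC 1 to 3 stood clear above, by 0.70 (adjusted p = 0.000194), while MesPC 4 to 6 overlapped the tissue at a difference of 0.01 (adjusted p = 0.961). Over all arrays the brightest Cpt1a probe set differed by 0.35 ± 0.21 (adjusted p = 0.195), and a second one of like brightness rose by 1.04 ± 0.22 (adjusted p = 0.00485).

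Smaller rises were seen for Acadm and Acads, the dehydrogenases of medium and short chains, at 0.29 ± 0.08 (adjusted p = 0.0171) and 0.21 ± 0.06 (adjusted p = 0.0237). Both calls were lost with the random block (adjusted p = 0.118 and 0.213) and without MesE11 3 (adjusted p = 0.0729 and 0.107), and that of Acadm also without MesE11 2 (adjusted p = 0.0686). Echs1, enoyl-CoA hydratase, read 10.17, 10.10 and 10.20 in MesPC 1 to 3 and 9.85, 9.86 and 9.91 in MesPC 4 to 6, against 10.04, 10.06 and 9.97 in MesE11, so that its sets lay on either side of the tissue. Over all arrays it differed by -0.01 ± 0.09 (adjusted p = 0.935).

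Between the culture sets, oxidation genes ran opposite to synthesis genes on the brightest probe sets. In 10 of 11 genes the MesPC 1 to 3 values all lay above the MesPC 4 to 6 values, Acads being the exception, where 26.0% of all genes lay above. The gap was 0.69 for both Cpt1a and Acadl. The median of the role was 0.83, 0.71 and 0.79 in MesPC 1 to 3 and 0.60, 0.61 and 0.38 in MesPC 4 to 6, against -0.10 to 0.05 in MesE11. Unlike the sterol genes, the oxidation genes were higher than tissue in each set taken alone, 9 of 11 in MesPC 1 to 3 and 8 of 11 in MesPC 4 to 6, with 0 lower in either. Of all genes 25.7% were higher in MesPC 1 to 3 and 22.9% in MesPC 4 to 6. The 8 proliferation markers and 7 of 8 oligodendrocyte markers, several of the latter dim, were likewise higher in MesPC 1 to 3 than in MesPC 4 to 6 without overlap. Of the 9 astrocyte markers 4 were, while Aldoc and S100b ran the other way, at -0.04 and -0.07, and the mean level of the 9 was 10.32 to 10.38 in MesPC 1 to 3 and 10.12 to 10.19 in MesPC 4 to 6, against 9.28 to 9.51 in MesE11. The part of these markers in the oxidation values was not tested.

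Of uptake and its receptors, Lpl, the lipase that frees fatty acids from lipoproteins, was the only 1 of 3 to change. It read 8.63, 8.80 and 8.63 in MesPC 1 to 3 and 7.44, 7.44 and 7.43 in MesPC 4 to 6, against 6.57, 6.90 and 6.98 in MesE11, where the lowest value lay within the bacterial control range. The sets and the tissue did not overlap, and MesPC 1 to 3 stood 2.38-fold above MesPC 4 to 6. Lpl rose by 1.25 ± 0.35 or 2.37-fold over all arrays (adjusted p = 0.0185), with 1.87 in MesPC 1 to 3 and 0.62 in MesPC 4 to 6, and the call was lost without MesE11 1 (adjusted p = 0.0752). Ppara, the receptor that governs oxidation genes in liver, read 6.77 to 7.00 in MesPC and 6.92 to 6.97 in MesE11 and differed by -0.03 ± 0.06 (adjusted p = 0.682). Ppard, the more widespread PPAR-delta, differed by -0.07 ± 0.07 (adjusted p = 0.467).

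**Figure D4:**
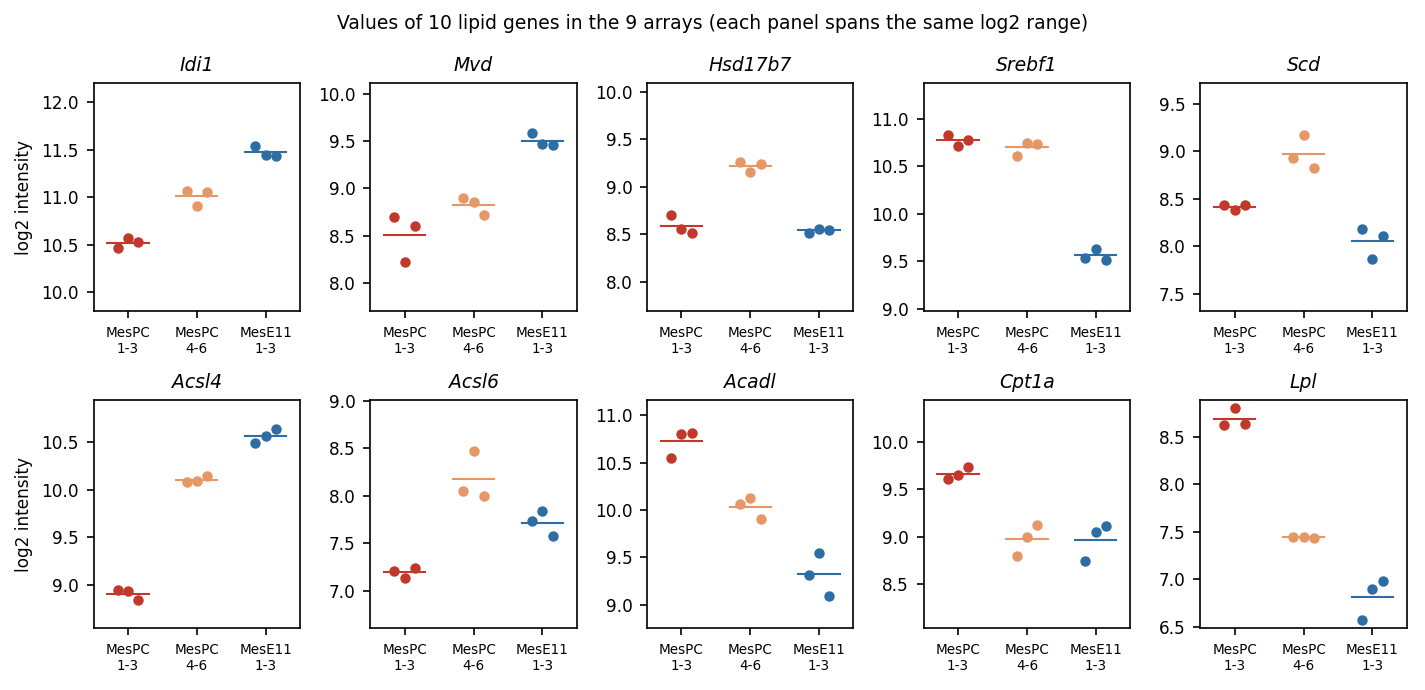
Log2 intensities of 10 members in the 9 arrays, with a line at each mean; every panel spans the same log2 range at its own level. Srebf1 is alike in both culture sets, Acsl4 and Lpl form 3 separate levels, and the Acsl6 sets lie on opposite sides of the tissue.

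In the limma fit with the culture sets as a random block, the tissue arrays formed a further block, with a correlation of 0.45 within each. Fewer calls were then made over all genes, with 13.2% higher and 9.11% lower in MesPC. Of the members 14 rose and 5 fell: 7 oxidation genes, 4 of fatty acid synthesis, 2 of sterol regulation and Lpl rose, and Pmvk, Mvd, Idi1, Acsl4 and Acsl5 fell.

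Further genes of the same pathways, taken from lists of known pathway members, were read as well. Of 17 further sterol genes measured 5 rose and 4 fell, near the shares of all genes, of which 21.9% rose and 22.7% fell. Apoe, the main apolipoprotein of astrocytes, read 11.22 to 12.02 in MesPC and 9.79 to 10.39 in MesE11 and rose by 1.46 ± 0.20 (adjusted p = 0.000302), or by 0.76 as the mean of its probe sets (adjusted p = 0.000325). The proteases that release SREBP went opposite ways: Mbtps1 rose by 1.02 ± 0.12 (adjusted p = 0.000155) and Mbtps2 fell by 0.67 ± 0.11 (adjusted p = 0.00127). Npc2, which moves cholesterol out of lysosomes, rose by 0.70 ± 0.06, while the exporter Abcg1 fell by 0.64 ± 0.20 and the lipoprotein receptor Scarb1 by 0.41 ± 0.07, or by 0.23 as the mean of its probe sets. The Abcg1 call was lost with the random block (adjusted p = 0.0905).

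Of 23 further oxidation genes 10 rose and 5 fell, where 21.9% of all genes rose and 22.7% fell, so the falls were near that share. Their median difference was 0.10, against 0.68 for the 11 members. The enoyl-CoA isomerases Eci1 and Eci2, needed for unsaturated chains, rose by 1.67 ± 0.18 (adjusted p = 8.86e-05) and 1.03 ± 0.17 (adjusted p = 0.0012), although the mean of the Eci1 probe sets differed by 0.72. Etfa, a subunit of the flavoprotein that takes electrons from the acyl-CoA dehydrogenases, read 10.43 to 10.82 in MesPC and 9.29 to 9.60 in MesE11 and rose by 1.19 ± 0.11 (adjusted p = 3.41e-05). Among the falls were the uncoupling protein Ucp2, by 0.56 ± 0.10 (adjusted p = 0.00189), the ketone body enzyme Bdh1, by 0.32 ± 0.06 (adjusted p = 0.00177), and the peroxisomal oxidase Acox2, by 0.27 ± 0.08 (adjusted p = 0.0267), at 5.62 to 5.75 in MesPC and 5.77 to 6.20 in MesE11, all within the bacterial control range.

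Of 11 further fatty acid synthesis genes 2 rose and 2 fell, no more than the shares of all genes. Acss1, a mitochondrial acetyl-CoA synthetase, rose by 1.17 ± 0.18 (adjusted p = 0.000626) and the elongase Elovl1 by 0.38 ± 0.08 (adjusted p = 0.00498). Slc25a1, which carries citrate to the cytosol, fell by 0.49 ± 0.15 (adjusted p = 0.0273) and Mcat, of mitochondrial fatty acid synthesis, by 0.32 ± 0.06 (adjusted p = 0.00284), and both of these calls were lost with the random block (adjusted p = 0.0822 and 0.0656).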

How the data were processed

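RNA was measured in 6 MesPC and 3 MesE11 samples on Affymetrix rat arrays. Tri-Reagent served for RNA isolation, per the labels' protocols. The deposited values are log2 intensities that the authors made with RMA (no version), per the submitters' processing notes. RMA puts arrays on nearly 1 distribution, so differences are relative to the other probe sets. Array medians were 8.61 to 8.67. Lower quartiles were 7.09 to 7.11 in MesPC 1 to 3, 6.98 to 7.07 in MesPC 4 to 6 and 7.15 to 7.21 in MesE11. Dim genes thus read slightly low in MesPC, more so in MesPC 4 to 6. The number of arrays limits the precision.

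Of 15923 probe sets 57 controls were left out. The array annotation gave 12783 probe sets a single symbol and 312 several, and 2771 were not listed. 12748 Entrez numbers were found in RefSeq's GRCr8 table, which changed 0 symbols. 1868 of the 10411 genes had several probe sets, and the brightest was used.

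limma 3.58.1 in R 4.3.3 (lmFit, eBayes) gave two-sided p-values, adjusted over all probe sets; it was tested on simulated data. No list was tested as a set. The members and lists were chosen with earlier results of these data known. For each role, array values are given for up to 4 called members without overlap between groups, by size, and up to 3 members with the widest gap between culture sets without overlap; of each further list, up to 3 called genes in each direction. Alternatives were quantile normalization, median centring, leaving out the dimmest 40% of probe sets, trended robust variance and a replicate block. Others were culture sets as a random block (with the tissue arrays as a further block), each culture set alone, averaging the probe sets of a gene, and leaving out each array. Plots were drawn with matplotlib 3.10.9.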

Additional observations from a re-analysis of the deposited data

Results flagged for a closer look

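In MesPC 2 Elovl6 read 9.37, below the other culture arrays at 9.58 to 9.68. Its gap to the nearest of them was 0.682 of the range of the group, more than Dixon's 95% critical value for 6 samples allows. Chance flags about 1 in 20 groups, and 47 members were examined.

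Acsl6 and Echs1 stood out because the culture sets lay on opposite sides of the MesE11 values. Acsl6 differed by -0.98 between MesPC 1 to 3 and MesPC 4 to 6, the first set being below every tissue array and the second above. Echs1 differed by 0.285, MesPC 1 to 3 being above every tissue array and MesPC 4 to 6 below. Neither difference was tested.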

How the results depend on the processing

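Over all probe sets 3128 were higher and 3565 lower in MesPC. The number lower was 1936 without the dimmest 40%, where fewer were tested, and leaving out 1 array gave 2484 to 3171 higher and 2241 to 3458 lower. With the culture sets as a random block 1879 probe sets were higher and 1348 lower, and 5 members fell, 3 of them in sterol synthesis. In MesPC 1 to 3 alone 19 members fell, 10 of them in sterol synthesis, and in MesPC 4 to 6 alone 3 sterol synthesis genes fell. Leaving out 1 array gave 15 to 18 members higher and 5 to 12 lower, 3 to 6 sterol synthesis genes lower, 7 to 9 oxidation and 3 to 4 fatty acid synthesis genes higher, and 14 to 15 members higher and 22 to 24 lower in MesPC 1 to 3 without overlap. The cause was not tested.

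Same-numbered samples did not deviate together (correlations 0.08, -0.12 and -0.11, against -0.18 to 0.26 for pairs with other numbers). Such correlations cannot show whether the numbers pair samples of 1 embryo batch, which was not tested. The replicate block rests on MesPC 1 to 3 and gave 17 members higher and 18 lower, and of those lower 9 were in sterol synthesis.

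Direction turned for members whose differences were near 0. Quantile normalization gave 0.0189 for Acsl6 and 0.0868 for Ppara. The replicate block, and likewise MesPC 1 to 3 alone, gave -0.113 for Sc5d, -0.0582 for Acsl3, 0.132 for Echs1, 0.014 for Ppara and 0.0263 for Ppard. MesPC 4 to 6 alone gave 0.0736 for Fdps, 0.0511 for Nsdhl, 0.0682 for Acly and 0.456 for Acsl6. Leaving out 1 array gave -0.1895 to 0.0774 for Acsl6, -0.0471 to 0.0226 for Echs1 and -0.042 to 0.0162 for Mvk. No called member changed direction under any alternative run.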

Other observations

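Uptake and storage genes outside the 47 members gave 5 rises and 6 falls among 26 measured, near the shares of all genes, of which 21.9% rose and 22.7% fell. Slc27a1, a fatty acid transport protein, read 11.33 to 11.66 in MesPC and 10.19 to 10.50 in MesE11 and rose by 1.12 ± 0.10 (adjusted p = 1.66e-05 in limma). Pnpla2, the lipase that opens stored triglyceride, rose by 0.74 ± 0.09 (adjusted p = 0.000143), and Lrp1, an endocytic receptor for apolipoprotein E, rose by 0.57 ± 0.08 (adjusted p = 0.00028).

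Plin2, the coat protein of lipid droplets, read 9.57 to 9.76 in MesPC and 10.95 to 11.07 in MesE11 and fell by 1.35 ± 0.06 or 2.54-fold (adjusted p = 2.07e-07). The lipid chaperone Fabp3 fell by 1.19 ± 0.11 (adjusted p = 3.41e-05) and the transport protein Slc27a2 by 1.09 ± 0.13 (adjusted p = 0.000128). For each of these 6 genes culture and tissue values did not overlap, and only Plin2 and Fabp3 among them parted the culture sets without overlap, Plin2 being 0.10 higher and Fabp3 0.31 lower in MesPC 1 to 3.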
